A study of Mus musculus with 12 samples.

Results

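The genes described here encode complexes II, III, IV and V of the mitochondrial inner membrane, the assembly factors named after them, and cytochrome c. They were chosen by name alone. A gene belonged to the set if its only symbol in the platform annotation began with Sdh followed by a to d, with Uqcr, with Cox followed by a digit, or with Atp5, or if it was Cyc1 or Cycs. This gave 60 of the 18193 genes with a single symbol. They comprised 8 genes of complex II, 9 of complex III, cytochrome c, 25 of complex IV and 17 of complex V, of which 47 encode subunits and 12 assembly factors. Cox14 was left out because its probe set carries several symbols. Each gene was read from the brightest of its probe sets over the 12 arrays. Of the 60, 47 exceeded 32 intensity units on at least 3 arrays, whatever their groups, and were tested.

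The arrays measured mRNA in CF1 mouse eggs at metaphase II. Full-grown oocytes with a germinal vesicle were injected with a mixture of Dcp1a and Dcp2 siRNA pools (double knockdown), with the Dcp1a pool, with the Dcp2 pool, or with a control siRNA. They were held in milrinone, which blocks meiotic resumption, for 20 h and then matured without it for 18 h. There were 3 separate biological replicates per group, each a pool of 30 eggs, over 4 groups, and the age of the donor females is not given in the labels. Dcp2 is the enzyme that removes the 5′ cap of mRNA and Dcp1a is its cofactor, so the series asked how loss of decapping factors during maturation altered the stored mRNA. Each value belongs to a pool, so fewer eggs holding a transcript and less of it per egg cannot be told apart. Values are also relative within an array, and total mRNA per egg was not measured.

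Complex II (succinate dehydrogenase) feeds electrons from the citric acid cycle to ubiquinone. Complex III passes them to cytochrome c, complex IV (cytochrome c oxidase) passes them on to oxygen, and complex V (ATP synthase) uses the resulting proton gradient to make ATP. The mouse egg relies on its mitochondria for ATP during maturation, when the nucleus is transcriptionally silent and mRNA inherited from growth is translated, stored or degraded.

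Targeting was visible on the arrays. The brightest Dcp1a probe set read 518 to 1233 units in the double knockdown and 589 to 1236 after Dcp1a siRNA, against 5385 to 12427 in control eggs. Dcp2 read 4.9 to 5.0 in the double knockdown and after Dcp2 siRNA, against 30.4 to 81.8 in control eggs. All 9 egg markers on the array were above 32 units on every array, and 14 of 16 cumulus and granulosa cell markers were above it on none. The summed intensity of the egg markers was 120655 to 128325 in the double knockdown, 105342 to 120072 after Dcp1a siRNA and 83849 to 104744 after Dcp2 siRNA, against 79259 to 109362 in control eggs. The double knockdown thus had the highest sums, and 2 of the 9 egg markers, Zp2 and Zp3, were called higher there than in control. Of all genes tested 6.78% were. At an unadjusted p under 0.05, 5 of the 9 were higher and 0 lower (limma), and their median log2 change was 0.93. The share of all genes at that unadjusted threshold was not counted. The summed intensity of the 16 cumulus and granulosa markers was 1309 to 1573 in the double knockdown, 2440 to 2524 after Dcp1a siRNA and 1758 to 2678 after Dcp2 siRNA, against 1621 to 2227 in control eggs. A pair of arrays, from different groups, stood apart. Control replicate 1 correlated with the Dcp1a arrays at 0.978 to 0.988 over all tested probe sets and with the other control arrays at 0.938 to 0.954. Dcp2 replicate 2 correlated with the Dcp1a arrays at 0.978 to 0.985 and with its own group at 0.938 to 0.963. Counts below are given with and without these arrays. The pair was picked from these same data for resembling another group. Leaving it out can widen group differences and lower the spread, so calls that appear only without it are no independent support. The ratio of 3′ to 5′ Actb control probes, a measure of RNA integrity, was 178 to 196 in the double knockdown, against 239, 77.6 and 91.8 in the control arrays. The same ratio for Gapdh was 153 to 168 in the double knockdown, against 96.8 to 176 in control. The part of these ratios and of the marker sums in the results was not tested.

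With both siRNAs, part of the respiratory genes were called higher and none was called lower by the test used here. Relative to control eggs, 12 of the 47 tested genes were called higher in the double knockdown and 0 lower (limma, Benjamini-Hochberg adjusted p under 0.05 over all 11593 probe sets tested). Among all 6996 genes tested the same rule called 6.78% higher and 1.64% lower. The 12 were Sdhb and Sdhaf2 of complex II, Cyc1, Uqcrq and Uqcr11 of complex III, Cox4i1 and Cox6a1 of complex IV, and Atp5g1, Atp5g2, Atp5o, Atp5j2 and Atp5d of complex V. Those counts were 2 of 7, 3 of 7, 2 of 15 and 5 of 17 genes tested by complex, and cytochrome c was not called. Before adjustment, 17 were higher and 1 lower with p under 0.05. The share of all genes at that threshold was not counted, so this and the unadjusted counts below cannot be set against a background. The 3 double knockdown arrays lay wholly above the 3 control arrays for 18 of the 47 genes and wholly below them for 2, against 13.6% and 11.4% of all genes tested. The median log2 change was 0.31 over the 47 genes, against 0.00 over all genes tested, and 35 of the 47 had a positive change, as did 50.1% of all genes tested. Over all 60 genes, with no filter on level, the median was 0.16 and 14 (23.3%) were more than 2-fold higher, against 4.26% of all 18193 genes. These sets differ in level, as 47 of the 60 but only 6996 of the 18193 passed the filter. The shares are thus not matched for level, and the part of level in the gap was not tested. Without the pair of arrays that stood apart, 16 were called higher and 0 lower, where 17.8% of all probe sets were called higher and 9.97% lower. They were the 12 genes above with Cox10, Cox6a2, Cox6b2 and Atp5e.

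**Figure D1:**
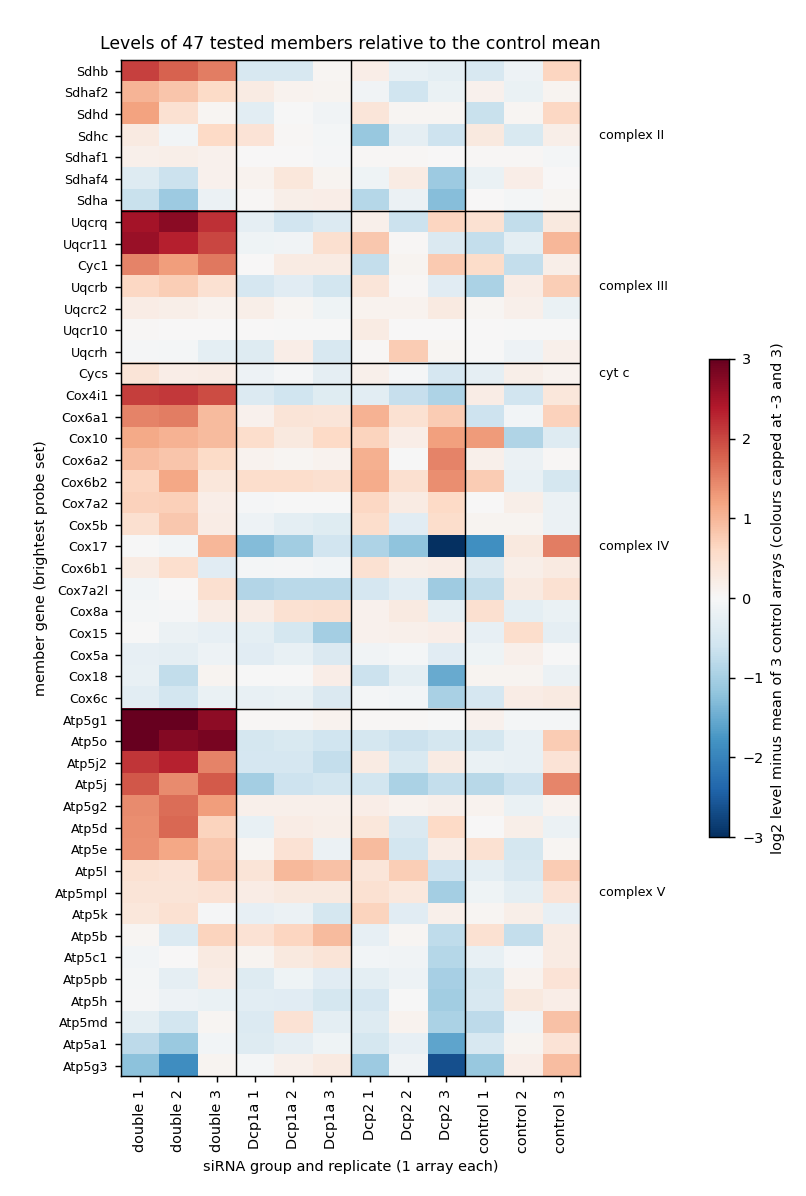
Log2 level of each of the 47 tested genes (rows, by complex) on each of the 12 arrays (columns), minus the mean of the 3 control arrays, with colours capped at 3 in both directions. The deepest red cells, in the 3 double knockdown columns, belong to Atp5g1, Atp5o, Uqcrq and Uqcr11. All 3 control arrays of Atp5g1 and Atp5o lay under 32 units.

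For part of these genes the double knockdown arrays stood above every other array. All 3 double knockdown arrays exceeded all 9 others for 13 of the 47 genes (27.7%), against 8.81% of all genes tested, and they lay below all 9 others for 0. The 13 were the called genes other than Cox6a1, with Cycs and Sdhaf1 in addition. For Sdhb, Atp5g1 and Atp5o this order was fixed by the filter, which they passed through the double knockdown arrays alone. The 27.7% includes those genes, and the 8.81% was counted without leaving out genes of that kind. The shares are therefore no separate support for a rise, and a share without such genes was not counted. The group mean was highest in the double knockdown for 27 genes, after Dcp1a siRNA for 8, after Dcp2 siRNA for 6 and in control for 6. It was lowest in the double knockdown for 0. For these orders of means, and for arrays below all 9 others, the share of all genes was not counted. Those counts therefore cannot be set against a background. Averaged over all 60 genes, each array's log2 level relative to the 12-array mean was 0.44, 0.37 and 0.41 in the double knockdown, against -0.22, -0.15 and 0.15 in control eggs. Control replicate 3 was the highest array outside the double knockdown.

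In ATP synthase 5 genes were called higher. Atp5g1, which encodes subunit c of the membrane ring, read 103, 150 and 82.0 units in the double knockdown, against 14.1, 12.2 and 12.2 in control eggs. It read 13.2 to 13.7 after Dcp1a siRNA and 12.7 to 13.2 after Dcp2 siRNA. The double knockdown was thus the only group in which this probe set exceeded 32 units. Because control values lay under 32, the fold is a bound against that floor that leaves out the spread among arrays. Atp5g1 was at least 3.38-fold higher (fitted log2 change 3.08 ± 0.21, SE, adjusted p = 1.63e-05, limma). Atp5o, the oligomycin sensitivity protein that joins the stalk to the catalytic head, read 105, 81.0 and 87.1 units in the double knockdown, against 8.3, 10.3 and 20.4 in control eggs. The groups did not overlap, and the 6 single knockdown arrays lay between 7.7 and 8.7. Atp5o was at least 2.83-fold higher (fitted log2 change 2.91 ± 0.28, adjusted p = 0.000159, limma).

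Atp5j2, which encodes the small membrane subunit f, was above 32 units on every array. It read 3886, 4338 and 2482 units in the double knockdown, against 768, 757 and 1176 in control eggs. The single knockdown arrays lay between 534 and 1052, all under the lowest double knockdown array. The log2 change was 1.98 ± 0.28 (SE, adjusted p = 0.00168, limma). Atp5g2, a further gene for subunit c, read 91.7, 110 and 81.3 units in the double knockdown, against 36.8, 29.8 and 36.6 in control eggs. Its log2 change was 1.45 ± 0.16 (adjusted p = 0.000468, limma), and the single knockdown arrays stayed within 37.0 to 39.6. Values this even may be the background of the probe set, so the size of the rise is less certain. Atp5d, the delta subunit of the central stalk, read 144, 181 and 86.7 units in the double knockdown, against 54.6, 61.8 and 47.9 in control eggs (log2 change 1.27 ± 0.32, adjusted p = 0.0308, limma). Its lowest double knockdown array was close to the highest Dcp2 array, at 82.8.

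The remaining ATP synthase genes did not pass the test on all arrays. Atp5j, coupling factor 6 of the peripheral stalk, came closest, with 47.2, 35.1 and 46.3 units in the double knockdown, against 7.3, 8.5 and 35.7 in control eggs. Control replicate 3 lay within the double knockdown range, and the adjusted p was 0.052 (log2 change 1.70 ± 0.48, limma). Atp5e, the epsilon subunit of the central stalk, read 346 to 505 units in the double knockdown, against 137 to 269 in control eggs. These ranges did not overlap, but the adjusted p was 0.0857 (1.12 ± 0.37, limma). Without the arrays that stood apart Atp5e was called higher (1.35 ± 0.30, adjusted p = 0.0123, limma). In the catalytic head, the alpha subunit gene Atp5a1 changed by -0.66 ± 0.37 and the beta subunit gene Atp5b by 0.11 ± 0.36, with adjusted p of 0.261 and 0.857 (log2, SE, limma). Atp5c1, the gamma subunit, changed by 0.07 ± 0.23 and Atp5h, the stalk subunit d, by -0.12 ± 0.27 on the same scale.

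The genes for subunit c gave unlike readings. Atp5g1, Atp5g2 and Atp5g3 encode the same mature ring protein behind different import sequences. Atp5g3 read 68.3, 43.8 and 169 units in the double knockdown, against 72.3, 185 and 307 in control eggs. The groups overlapped and the log2 change was -1.01 ± 0.69 (SE, adjusted p = 0.342, limma), the most negative value among the 47 genes. The difference between these genes was not tested.

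**Figure D2:**
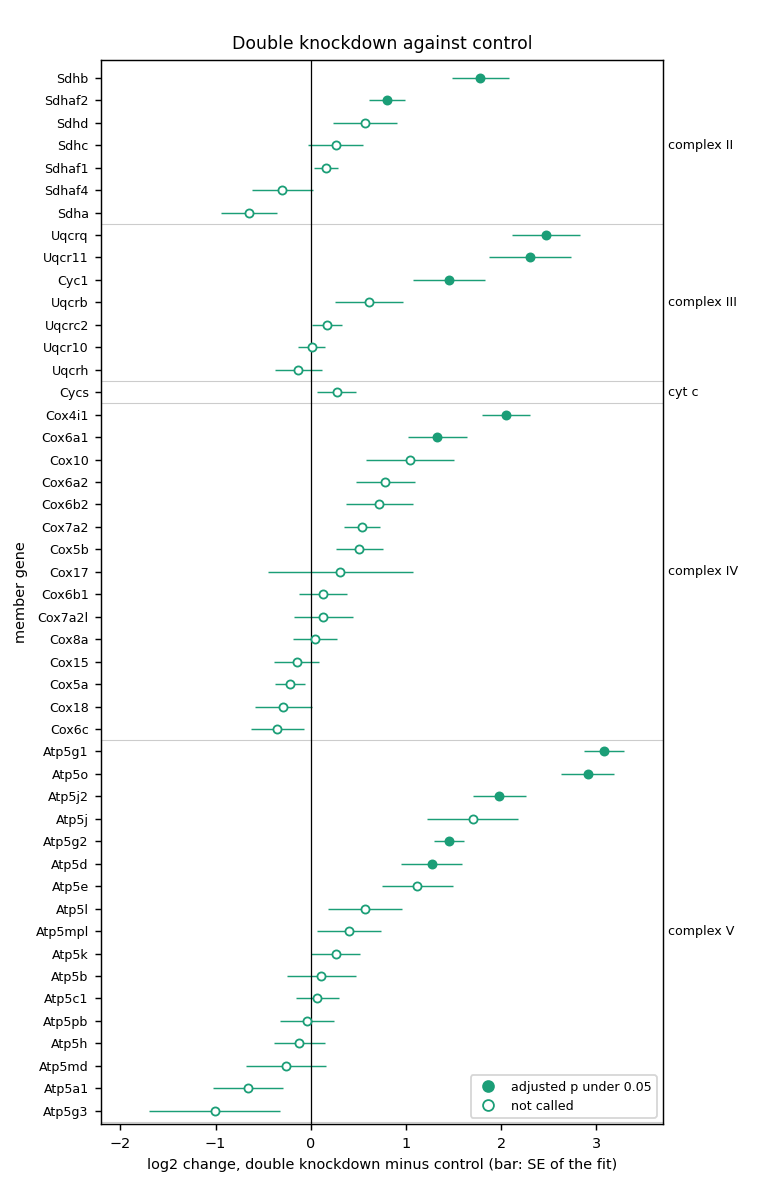
Log2 change of each tested gene in the double knockdown against control, grouped by complex, with bars for the SE of the fit. Filled points passed the adjusted p threshold of 0.05, and all 12 of them lie to the right of 0.

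In complex IV both genes that rose encode ubiquitous isoforms of nuclear-encoded subunits. Cox4i1, the regulatory subunit that joins the catalytic core early in assembly, read 658, 678 and 611 units in the double knockdown, against 183, 105 and 197 in control eggs. The 6 single knockdown arrays lay between 82.1 and 125, and all 9 arrays outside the double knockdown were above 32 units. The log2 change was 2.05 ± 0.25 (SE, adjusted p = 0.000666, limma). Cox6a1, an isoform of a subunit outside the core, read 15252, 15731 and 10454 units in the double knockdown, against 3515, 5132 and 8757 in control eggs (log2 change 1.33 ± 0.31, adjusted p = 0.023, limma). Its Dcp2 siRNA arrays, at 7427 to 11211, overlapped both of those groups.

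The other complex IV genes did not pass the test on all arrays. Cox5a, which had the highest mean level of the complex, read 25584 to 27792 units in the double knockdown, against 27855 to 33811 in control eggs (log2 change -0.22 ± 0.16, adjusted p = 0.361, limma). Cox7a2 read 6989 to 10037 units in the double knockdown, against 5376 to 6865 in control eggs (0.54 ± 0.19, adjusted p = 0.109, limma). Ranges for both genes were apart, in opposite directions. Cox6b1, Cox6c and Cox8a, further small subunits, changed by 0.13 ± 0.25, -0.35 ± 0.28 and 0.04 ± 0.23, and Cox5b by 0.51 ± 0.25 (log2, SE, limma). Among assembly factors, Cox10, which makes heme O, changed by 1.04 ± 0.46 (adjusted p = 0.173, limma), with control replicate 1 at 3330 units and the other controls at 737 and 1045. Without the arrays that stood apart the change of Cox10 was 1.68 ± 0.23 (adjusted p = 0.00187, limma). The copper chaperone gene Cox17 ranged from 227 to 2338 units within the control group alone.

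Genes for tissue or germ-cell isoforms differed in whether they could be read at all. Cox6a2, the heart and muscle isoform, read 59.2, 54.9 and 46.4 units in the double knockdown, against 34.4, 27.3 and 31.5 in control eggs. That difference did not pass on all arrays (0.78 ± 0.31, adjusted p = 0.143, limma). Cox6b2, known as the testis isoform, read 1750, 2533 and 1435 units in the double knockdown, against 1901, 964 and 784 in control eggs (0.72 ± 0.35, adjusted p = 0.2, limma). It was above 32 units on all 12 arrays. Without the arrays that stood apart both were called higher, Cox6a2 by 0.86 ± 0.19 (adjusted p = 0.0115) and Cox6b2 by 1.09 ± 0.24 (adjusted p = 0.0122, limma). Cox4i2, Cox7b2 and Cox8b read 4.9, the lowest value of the table, on every array. Cox7a1 read 5.1 on every array, and Cox8c lay between 6.1 and 9.8.

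Complex III had 3 of its 7 tested genes called. Uqcrq, a small subunit, read 603, 703 and 491 units in the double knockdown, against 147, 63.9 and 132 in control eggs. All single knockdown arrays lay between 68.1 and 168, under every double knockdown array. The log2 change was 2.47 ± 0.36 (SE, adjusted p = 0.00226, limma). Uqcr11, the smallest subunit, read 123, 103 and 82.0 units in the double knockdown, against 12.6, 16.8 and 41.3 in control eggs. It was at least 2.91-fold higher (fitted 2.30 ± 0.43, adjusted p = 0.00801, limma), and control replicate 3 was the highest of the 9 other arrays. Cyc1, the heme protein that hands electrons to cytochrome c, read 60.1, 50.8 and 64.1 units in the double knockdown, against 31.0, 13 and 23.9 in control eggs. It was at least 1.81-fold higher (fitted 1.45 ± 0.38, adjusted p = 0.0362, limma).

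The brightest genes of complex III were not called. Uqcrc2, a core protein, read 57672 to 62636 units in the double knockdown, against 46786 to 59144 in control eggs (log2 change 0.17 ± 0.16, SE, adjusted p = 0.486, limma). Uqcrb, which binds ubiquinone, read 3356 to 4048 units in the double knockdown, against 1257, 2822 and 4051 in control eggs (0.61 ± 0.36, adjusted p = 0.272, limma). Both ranges overlapped. The hinge protein gene Uqcrh changed by -0.13 ± 0.25 and Uqcr10 by 0.01 ± 0.14. Uqcr10 read 51.1 to 52.3 units on every array but Dcp2 replicate 1, at 60.4. Such even values may be background of the probe set, so they do not show that its mRNA was unchanged. Cycs, cytochrome c itself, read 6703, 5863 and 5917 units in the double knockdown, against 4227, 5718 and 5486 in control eggs. Although every double knockdown array was above every other array, the log2 change was small, 0.27 ± 0.20 (adjusted p = 0.38, limma).

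In complex II, 2 of the 7 tested genes rose, and the genes of the catalytic pair gave unlike readings. Sdhb, the iron-sulfur subunit, read 68.8, 56.3 and 47.8 units in the double knockdown, against 11.8, 14.9 and 26.0 in control eggs. It was at least 1.78-fold higher (fitted log2 change 1.78 ± 0.30, SE, adjusted p = 0.00457, limma), and no array outside the double knockdown exceeded 32 units. Sdha, the flavoprotein subunit, read 549, 412 and 769 units in the double knockdown, against 877, 837 and 913 in control eggs. These groups did not overlap, and the log2 change of -0.65 ± 0.29 did not pass (adjusted p = 0.17, limma). Sdhaf2, which is needed to attach the flavin to Sdha, read 67.4, 59.4 and 49.4 units in the double knockdown, against 36.5, 29.0 and 35.3 in control eggs (0.80 ± 0.19, adjusted p = 0.0252, limma). The membrane anchor genes Sdhd and Sdhc changed by 0.57 ± 0.34 and 0.26 ± 0.29, with adjusted p of 0.283 and 0.56. Sdhaf4, a chaperone of the assembling flavoprotein, changed by -0.30 ± 0.32. Sdhaf1, an assembly factor for the iron-sulfur subunit, read 121 to 125 units in the double knockdown, against 107 to 112 in control eggs, a log2 change of 0.16 ± 0.13 (adjusted p = 0.431, limma). All its arrays outside the double knockdown read 106.5 to 112.2, which may be background of the probe set, so the size of this change is uncertain.

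**Figure D3:**
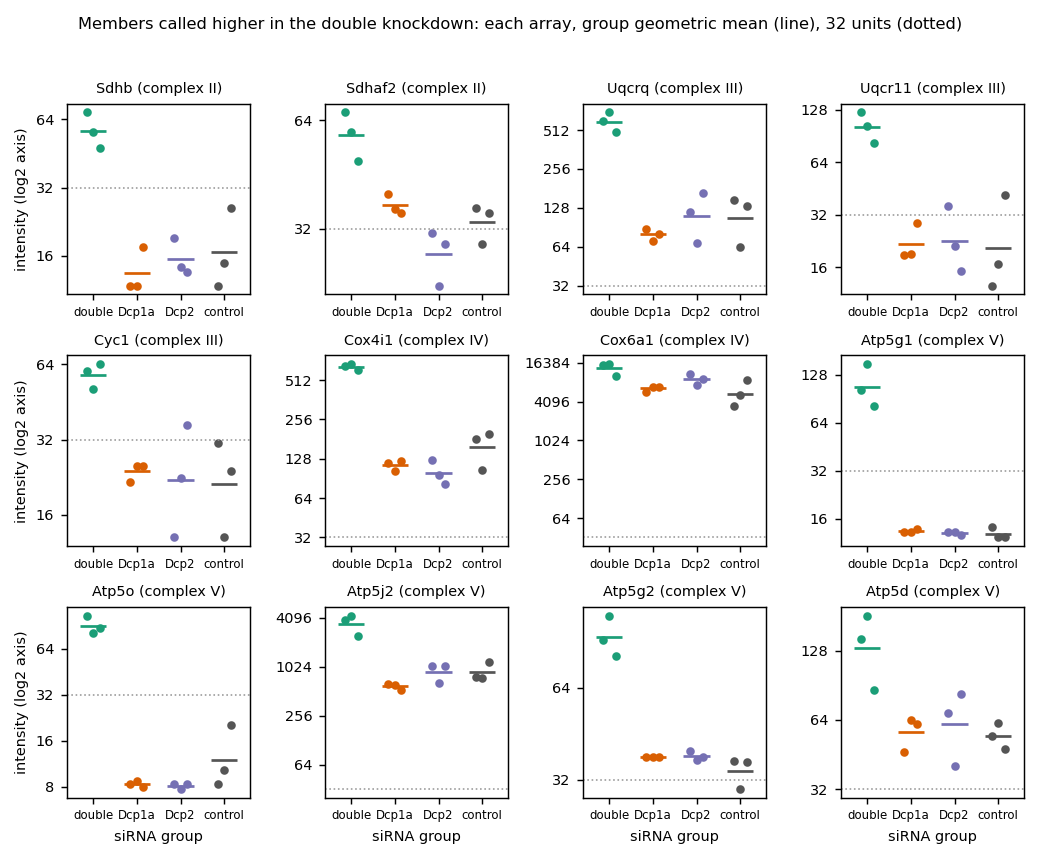
Intensity (log2 axis) of the 12 genes called higher in the double knockdown on each array, by siRNA group. Points are arrays, lines are geometric means of 3 arrays, and the dotted line marks 32 units. For Sdhb, Atp5g1 and Atp5o, points above the dotted line are found in the double knockdown alone.

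The called genes were mostly dim in control eggs. In control eggs the median log2 level of the 12 called genes was 5.08, against 9.28 for the 35 other tested genes, and 8 of the 12 were at or under 6. Over all genes, the medians were 6.30 for the 474 called higher and 8.49 for the 6522 others, with 212 of the 474 and 1013 of the 6522 at or under 6. Of the 12, 3 passed the filter through the double knockdown arrays alone (Sdhb, Atp5g1 and Atp5o), and 5 were above 32 units on all 9 other arrays (Uqcrq, Cox4i1, Cox6a1, Atp5j2 and Atp5d). Levels of different probe sets are not a scale of mRNA abundance.

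Not all of the 12 calls were equally firm. The calls of Atp5g1, Atp5g2, Atp5o, Atp5j2, Cox4i1 and Uqcrq held under every alternative setting in which they were tested, including the loss of each array in turn. Sdhb and Uqcr11 also held without any 1 array. When only the 6 arrays compared set the variance, their adjusted p was 0.0529 and 0.0632, and those of Cyc1, Cox6a1, Sdhaf2 and Atp5d were 0.0922, 0.132, 0.112 and 0.0972 (limma). With no filter on level, 5 of the 12 lost the call: Cyc1, Cox6a1, Uqcr11, Sdhaf2 and Atp5d, with adjusted p of 0.211, 0.139, 0.0741, 0.0655 and 0.173 (limma). Median centring ended the calls of Sdhaf2 and Atp5d (adjusted p = 0.0656 and 0.0627, limma), and so did quantile normalization (0.0649 and 0.0653). Cyc1, Cox6a1, Atp5d and Sdhaf2 lost the call without control replicate 2, with adjusted p of 0.146, 0.0895, 0.0757 and 0.105. Leaving out replicate 1 of the double knockdown, or replicate 2 of it, also ended these calls (adjusted p of 0.0886 to 0.133, limma). Cyc1 lost the call without any 1 Dcp1a array as well, with adjusted p of 0.0578 to 0.0597, and without double knockdown replicate 3 (adjusted p = 0.0681, limma). Without control replicate 3, Cyc1 and Atp5d lost theirs (adjusted p = 0.0552 and 0.0787, limma), and Atp5d had an adjusted p of 0.0506 without Dcp1a replicate 3.

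Other probe sets gave a second reading for some of the called genes. These were chosen after their values were seen. A second tested probe set of Atp5o, Atp5j2 and Cox6a1 was called higher too, with fitted log2 changes of 3.0 ± 0.14, 2.43 ± 0.26 and 1.70 ± 0.34 (SE, limma). For the other 9 called genes no further probe set passed the filter. Among genes whose brightest probe set was not called, a second probe set of Cox10 was called higher (0.96 ± 0.26, adjusted p = 0.0471, limma). No further probe set was called lower, and the sign of the change differed between probe sets for Atp5a1, Cycs and Uqcrh.

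Each siRNA pool alone left these genes without a called change. After Dcp1a siRNA 0 of 47 genes were higher and 0 lower than in control eggs by limma, where 0.0286% of all genes were called in each direction. At an unadjusted p under 0.05 there were 0 higher and 2 lower. These were Cox7a2l, which takes part in joining complexes III and IV (-0.83 ± 0.31), and Cox15, which makes heme A (-0.61 ± 0.24), each with an adjusted p of 0.853. After Dcp2 siRNA 0 were higher and 0 lower by limma, where 0.0% and 0.0286% of all genes were called. Unadjusted, 4 were higher (Cox6b2 1.00, Cox6a2 0.85, Cox6a1 0.76 and Cox7a2 0.49) and 5 lower (Cox17 -1.70, Cox18 -0.82, Sdha -0.76, Sdhc -0.67 and Cox4i1 -0.65, all log2), each with an adjusted p of 0.425. The median log2 change was 0.00 after Dcp1a siRNA and 0.02 after Dcp2 siRNA, against 0.10 and -0.08 over all genes tested.

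The single knockdown result depended on the arrays that stood apart, which were picked from these same data. Without control replicate 1 and Dcp2 replicate 2, the Dcp2 knockdown had 3 genes called higher (Cox6b2 1.64 ± 0.26, Cox10 1.59 ± 0.25 and Cox6a2 1.36 ± 0.21) and 7 called lower. The 7 were Cox17, Atp5g3, Atp5a1, Cox7a2l, Sdha, Atp5h and Atp5pb, with log2 changes between -2.87 and -0.90. In that setting 8.78% of all probe sets were called higher and 12.1% lower, so the genes' shares were near the background. The Dcp1a knockdown then had Cox10 called higher (1.11 ± 0.23, adjusted p = 0.0315, limma) and Cox7a2l called lower (-1.20 ± 0.23, adjusted p = 0.0277, limma), where 4.66% and 0.75% of all probe sets were called.

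The double knockdown also read higher than either single knockdown. Against Dcp1a siRNA alone, the double knockdown had 12 of the 47 genes called higher and 0 lower, where 8.18% and 3.3% of all genes were called. Unadjusted, 20 were higher and 1 lower by limma at p under 0.05. The 12 were the genes called against control with Atp5j in place of Cox6a1, whose adjusted p was 0.0533 (limma). Some of these calls were weak. Sdhaf2 kept its call in 9 of 22 alternative settings, Cyc1 in 12 and Atp5d in 15, with highest adjusted p of 0.18, 0.249 and 0.163 (limma). Against Dcp2 siRNA alone, 10 were higher and 0 lower, where 5.87% and 0.272% of all genes were called, and unadjusted the numbers were 16 and 0 by limma. These were Atp5g1, Atp5g2, Atp5o, Atp5j, Atp5j2, Cox4i1, Uqcrq, Uqcr11, Sdhb and Sdhaf2. These comparisons share the double knockdown arrays. Without the arrays that stood apart, 18 were higher and 1 lower against Dcp1a siRNA (11% and 12% of all probe sets), and 11 were higher and 0 lower against Dcp2 siRNA (5.98% and 0.285%). Atp5j read 6.4 to 8.9 units on the single knockdown arrays, and its calls rest on those values (adjusted p = 0.00795 against Dcp1a siRNA and 0.0103 against Dcp2 siRNA, limma). With values under 32 set to 32, its log2 change was 0.41 against each pool and neither call held (adjusted p = 0.0962 and 0.179, limma). Neither held with no filter on level (adjusted p = 0.0711 and 0.0975, limma).

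An interaction term tested whether the log2 change with both siRNA pools departed from the added changes of each pool given alone. It passed upward for 8 of the 47 genes and downward for 0, where 3.7% and 0.0572% of all genes were called. Unadjusted, 14 were upward and 0 downward by limma. The 8 were Atp5o, Atp5j, Cox4i1, Atp5g1, Uqcrq, Atp5j2, Sdhb and Atp5g2. The departure of Atp5g2 passed in only 13 of 21 alternative settings. With no filter on level, those of Uqcrq, Atp5j2, Sdhb and Atp5j did not pass (adjusted p = 0.102, 0.0506, 0.113 and 0.198, limma). For Cox4i1 the change was 2.05 with both siRNAs, -0.46 with Dcp1a siRNA and -0.65 with Dcp2 siRNA, which gave a departure of 3.16 ± 0.35 (log2, SE, adjusted p = 0.000845, limma). For Atp5j2 the changes were 1.98, -0.58 and 0.02, a departure of 2.54 ± 0.39 (adjusted p = 0.00549, limma). Both genes were above 32 units on every array. For Atp5o, Atp5j, Atp5g1 and Sdhb all single knockdown arrays were under 32 units, so the size of the departure depends on values under that floor. With values under 32 set to 32, the departure of Atp5j was 0.46 (adjusted p = 0.442) and that of Sdhb was 0.83 (adjusted p = 0.0619, limma), and neither passed. The departures of Atp5o and Atp5g1 were then 1.5 and 1.76 and passed (adjusted p = 0.00236 and 0.00593, limma). With that floor, Atp5o, Atp5g1 and Sdhb read the same on every array outside the double knockdown. Their departures then equal their changes against control, so these tests cannot decide on additivity. Without the pair of arrays that stood apart, 12 genes departed upward and 1, Cox6b2, downward (-1.43 ± 0.34, adjusted p = 0.0421, limma), where 4.89% and 1% of all probe sets were called.

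**Figure D4:**
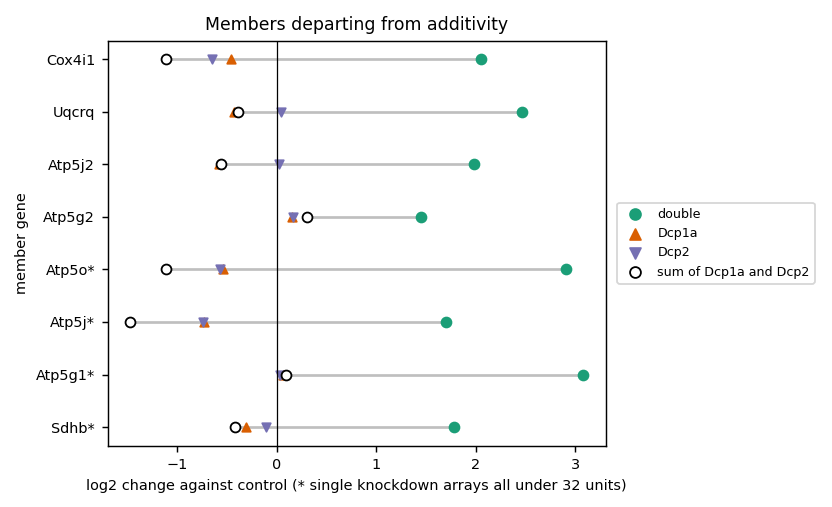
Log2 change against control of the 8 genes that departed from additivity, in the double knockdown, after Dcp1a siRNA and after Dcp2 siRNA, with the sum of both single changes as open circles. The grey line is the departure, which runs from 1.14 for Atp5g2 to 3.16 for Cox4i1 among the 4 genes above 32 units in the single knockdowns. Of these, Atp5g2 read 37.0 to 39.6 units there, near 32, so the size of its departure is less certain. For the 4 genes with an asterisk all single knockdown arrays were under 32 units, so the length of the line depends on values under that floor.

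A further 13 genes were below the filter and have no tested change. They were Sdhaf3, Uqcrc1, Uqcrfs1, Cox4i2, Cox7a1, Cox7b2, Cox7c, Cox8b, Cox8c, Cox11, Cox16, Cox19 and Cox20. Uqcrc1, a core protein of complex III, read 4.9 on every array, and Uqcrfs1, the Rieske iron-sulfur protein, read 11.1 to 17.4. Cox7c, a ubiquitous subunit of complex IV, read 4.9 to 5.1. A reading near the floor does not show that the mRNA was absent from the egg. All 17 ATP synthase genes passed the filter, against 15 of 25 complex IV genes.

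Genes that work with these complexes were read from lists chosen by function, and complex I genes by symbol. Here rose and fell mean called at an adjusted p under 0.05 (limma). In the double knockdown against control 6.78% of all genes tested were called higher and 1.64% lower. Of 11 tested assembly factors that the naming rule does not cover, 3 rose and 0 fell in the double knockdown against control. Uqcc2, which assists cytochrome b of complex III, rose by 1.91 ± 0.22 and Surf1, which assists complex IV, by 1.68 ± 0.37 (log2, SE, adjusted p = 0.000505 and 0.0185, limma). The third was Cmc2 (0.78 ± 0.22), just past the threshold with an adjusted p of 0.05 after rounding. The list's median was 0.08. Of 11 citric acid cycle genes 2 rose, Mdh2 by 3.37 ± 0.74 and Idh3g by 2.61 ± 0.36 (malate dehydrogenase and a subunit of isocitrate dehydrogenase), 0 fell, and the median was -0.33. None of the 7 adenine nucleotide, phosphate and outer membrane channel genes passed in either direction by limma, 1 was higher and 1 lower at an unadjusted p under 0.05, and the median was -0.62. Of 6 genes of mitochondrial transcription and biogenesis 3 rose and 0 fell, with a median of 0.52. These were Tfb1m, a methyltransferase of mitochondrial ribosomal RNA (1.71 ± 0.34), the transcription factor Nrf1 (1.22 ± 0.31) and the mitochondrial RNA polymerase Polrmt (1.06 ± 0.25). Of 29 tested genes named as complex I subunits, 12 rose and 0 fell, with a median of 0.85. The difference between complex I and the other complexes was not tested.

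Promoter sequence was available for 46 of the 60 genes, as the 250 bases upstream of the RefSeq start in GRCm38.p6. A set of 3 motifs known from nuclear genes of respiration were searched on both strands, the NRF1 site GCGCATGC, the ETS site CCGGAAG and the YY1 site AAGATGGC. The NRF1 letters occurred in 3 of 9 called genes with a window, in 3 of 37 others and in 2.56% of all 27025 promoters. The ETS letters occurred in 3 of 9 called genes, in 11 of 37 others and in 7.83% of all promoters. The YY1 letters occurred in 0 of 9 called genes, in 2 of 37 others and in 1.83% of all promoters. The sequences below show the called genes that hold the NRF1 letters, followed by Cycs, which holds them and was not called. Capitals mark the NRF1 letters and, near the end of the Cox6a1 window, the ETS letters. The run GCGCATGCGC holds a pair of overlapping NRF1 matches, 1 per strand. The windows are chr4:140961021-140961270 on the plus strand for Sdhb, chr15:102671048-102671297 on the minus strand for Atp5g2, chr5:115348959-115349208 on the minus strand for Cox6a1 and chr6:50566570-50566819 on the minus strand for Cycs. Each is written 5′ to 3′ on the gene's strand.
Sdhb: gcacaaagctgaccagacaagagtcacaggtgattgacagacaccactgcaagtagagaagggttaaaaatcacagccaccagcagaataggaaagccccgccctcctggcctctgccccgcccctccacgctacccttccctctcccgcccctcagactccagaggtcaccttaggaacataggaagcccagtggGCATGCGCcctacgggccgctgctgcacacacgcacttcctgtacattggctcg
Atp5g2: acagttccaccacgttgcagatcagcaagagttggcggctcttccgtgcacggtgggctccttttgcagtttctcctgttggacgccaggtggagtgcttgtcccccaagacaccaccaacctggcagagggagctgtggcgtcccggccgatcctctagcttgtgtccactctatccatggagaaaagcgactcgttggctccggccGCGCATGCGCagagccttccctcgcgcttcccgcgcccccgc
Cox6a1: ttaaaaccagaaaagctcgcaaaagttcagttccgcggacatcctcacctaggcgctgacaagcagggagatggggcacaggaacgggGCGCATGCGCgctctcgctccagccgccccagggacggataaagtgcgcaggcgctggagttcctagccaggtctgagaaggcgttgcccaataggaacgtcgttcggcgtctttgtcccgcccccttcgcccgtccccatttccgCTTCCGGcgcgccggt
Cycs: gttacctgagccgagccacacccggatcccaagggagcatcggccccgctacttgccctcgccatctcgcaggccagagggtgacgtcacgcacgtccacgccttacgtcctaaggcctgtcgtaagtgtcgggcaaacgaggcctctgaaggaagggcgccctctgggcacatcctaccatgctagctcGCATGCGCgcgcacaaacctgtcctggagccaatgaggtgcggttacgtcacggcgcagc

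Of the genes called under every setting, Atp5g1, Atp5j2 and Atp5o had windows that held none of the 3 motifs, and Cycs held the NRF1 letters with a log2 change of 0.27 that was not called. A match to letters is a description of the sequence and not a measured binding site.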

How the data were processed

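RNA from pools of 30 metaphase II eggs was amplified, biotin-labelled and hybridised to Affymetrix mouse arrays (per the labels' protocols). In the deposited table there is 1 intensity per probe set and array, made by the authors with GCRMA (background correction by probe sequence, normalization between arrays and summary over probes), per the submitters' processing notes. No version of GCRMA is given in those notes or labels. The values are linear, with a minimum of 4.9, and 55.6% are at or under 5 units, so many weak signals share a common floor. Other probe sets repeated a higher value, such as Atp5g2 at 38.0 units on every Dcp1a array and Uqcr10 at 51.1 to 51.2 on every control array. Such values may be the background of that probe set, so a reading above 32 units need not exceed it. This was not tested. The number of arrays limits precision.

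Values were taken to log2. The 64 control probe sets were left out, and the 11593 with log2 above 5 (32 units) on at least 3 of 12 arrays were tested. Genes were named from the platform annotation (34945 probe sets with 1 symbol, 932 with several, 9160 without). All 60 gene symbols matched the RefSeq table and 0 changed. Of their 120 probe sets 75 were tested. Group means over all 12 arrays were fitted in limma (version 3.58.1, R version 4.3.3) by lmFit, then eBayes with no trend, on 8 residual and 2.97 prior degrees of freedom. Tests were two-sided and called at an adjusted p under 0.05 (Benjamini-Hochberg over the 11593). The error given beside a log2 change is its standard error in that fit. Where the dimmer group's mean or median did not exceed log2 5, the fold is a lower bound: log2 values of dim arrays were raised to 5 where below it, averaged, and subtracted from the brighter group's mean. The script was tested on simulated data.

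The text names genes called in any comparison, the brightest and the nearest uncalled pair of each complex, genes below the filter, tissue isoforms and up to 4 called genes of each list. Further genes were named after their values were seen, to complete each complex. The genes and lists were chosen with earlier results of these data known. Alternatives changed the samples in the fit, a replicate block, centring, quantile normalization, the floor, the filter, the variance model, the probe set rule and single arrays. The labels do not say whether replicate numbers pair the samples. Deviations from group means of same-numbered arrays correlated between -0.685 and 0.394, and those of other arrays between -0.506 and 0.722. Deviations within a group of 3 arrays cancel out, so these values cannot decide whether the numbers pair the samples. Python 3.11.15, pandas 2.3.3 and matplotlib 3.10.9 were used for tables and figures.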

Additional observations from a re-analysis of the deposited data

Results flagged for a closer look

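For 8 genes the effect of 1 siRNA pool differed with the presence of the other, by the interaction test of limma. The departure from added single changes was 3.16 for Cox4i1, 2.85 for Uqcrq, 2.54 for Atp5j2 and 1.14 for Atp5g2 on the log2 scale. Atp5g2 read 38.0 units on every Dcp1a array and 37.0 to 39.6 after Dcp2 siRNA, near 32. The size of its departure is less certain for that reason. Its call was lost under median centring, quantile normalization and a replicate block (adjusted p = 0.079, 0.0759 and 0.0585, limma). With no filter on level, Uqcrq and Atp5j2 did not pass either (adjusted p = 0.102 and 0.0506, limma), nor did Sdhb and Atp5j (0.113 and 0.198). For the 4 genes under 32 units on all single knockdown arrays, the fitted departure was 4.02 for Atp5o, 3.18 for Atp5j, 2.99 for Atp5g1 and 2.19 for Sdhb, and with values under 32 set to 32 it was 1.5, 0.46, 1.76 and 0.83, so these sizes have no order against the others. Adjusted p ran from 0.000312 for Atp5g1 to 0.0247 for Atp5j. In the single knockdowns these genes had log2 changes between -0.74 and 0.16 and none was called there. Cox4i1, Uqcrq and Atp5j2 were above 32 units on every array. With the floor applied, Atp5j and Sdhb no longer passed (adjusted p = 0.442 and 0.0619, limma). For Atp5o, Atp5g1 and Sdhb the departure then equals the change against control, so it cannot decide on additivity.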

How the results depend on the processing

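With limma, calls in the double knockdown against control numbered 12 higher and 0 lower. Percentages in brackets are the share of all probe sets called in the same setting and direction. Counts without single arrays and with a replicate block have no such share beside them, so they cannot be set against a background. Calls were 6 higher when the variance came from the arrays compared (1.95%), 4 under the stricter filter (5.6%; log2 above 7, which tested 32 of the 47 genes), and with array weights 18 higher (18.5%) and 3 lower (16.4%; Sdha, Atp5a1 and Atp5g3). Leaving out single arrays gave 8 to 15 higher. Against Dcp1a siRNA the higher calls were 20 with the arrays compared (12.8%), 3 under the stricter filter (7.39%), 27 with array weights (23.8%) and 9 to 16 without single arrays. Lower calls there were 7 with array weights (37.2%), 1 without both arrays that stood apart and 0 to 1 without single arrays. Against Dcp2 siRNA the higher calls were 3 under the stricter filter (4.92%), 16 with array weights (16.4%) and 9 to 11 without single arrays. Upward departures from additivity numbered 4 with no filter (0.344%), 3 under the stricter filter (3.25%), 15 with array weights (7.56%) and 5 (without Dcp1a replicate 2) to 12 (without control replicate 1) when single arrays were dropped. Downward ones were 1 with array weights (0.957%) and 1 without both arrays. Without both arrays, Dcp1a siRNA gave 1 higher and 1 lower and Dcp2 siRNA 3 higher and 7 lower. Without control replicate 1 alone, Dcp1a siRNA gave 1 lower and Dcp2 siRNA 1 higher, against 0 without each other array. The causes were not tested, except that the stricter filter tests fewer genes. No direction of a called gene reversed. A replicate block gave 9 higher against control, 9 against Dcp1a siRNA, 10 against Dcp2 siRNA and 7 departures. Whether replicate numbers pair the samples is not known. Signals near the floor limit folds of the dim genes, and 3 arrays per group limit all tests.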
